A study of Homo sapiens with 8 samples.

Results

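Loss of attachment was examined in control cells of H1703, an established human lung squamous carcinoma line. The comparison sets the 2 detached libraries against the 2 attached libraries, all 4 from cells carrying a knockdown of luciferase, a firefly gene that human cells lack, as the control for a knockdown of SPIB. These are 4 of the 8 RNA sequencing libraries of the study, whose other 4 come from the same line with the SPIB knockdown, again 2 attached and 2 detached. The detached cells are labelled as floating or as freed from the extracellular matrix. A treatment note naming 12 hours of floating stands on every sample, attached ones included, so the time is taken from that note alone. The study's title concerns SPIB in anoikis resistance and in the autolysosomal process, and the control comparison shows what detachment changed without the SPIB knockdown. The labels call the libraries of a group biological repeats. The p-values set a change against the spread between repeats, which was estimated from all 8 libraries, those with the SPIB knockdown included.

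Epithelial cells and the carcinomas derived from them normally grow fixed to a matrix through integrins, which gather into focal adhesions and pull on actin fibres. Tension in these fibres keeps the coactivators YAP and TAZ in the nucleus, where they bind TEAD transcription factors, while the Hippo kinases LATS1 and LATS2 drive them out when the cell rounds up. Detached cells lose growth signals that pass through integrins and may die by anoikis, a form of apoptosis, and cancer cells that resist it can survive while floating.

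Values are FPKM, in which fragment counts are divided by transcript length and by the library total, so that levels of different genes can be set side by side per length. The FPKM of all loci added up to 732916 and 776025 for attached control cells and to 708338 and 751541 for detached ones. The absolute depth is unknown. From the spacing of low values the deepest of the 4 control libraries had 1.6 times the reads of the shallowest. The loci of the mitochondrial chromosome summed to 0 in 1 attached and 1 detached control library and to 49159.7 and 48805.3 FPKM in the other 2, so this split does not follow attachment. Of 8 markers of squamous lung carcinoma 5 had a row of their own, and only SOX2 reached 1 FPKM (1.82 to 2.68). The basal cell factor TP63 lay between 0.0549 and 0.128 FPKM, and DSG3 and PKP1, genes of desmosomes, reached at most 0.0267 FPKM. The other 3 lie only in merged loci and could not be read singly, among them KRT5 with KRT6A at 3.61 to 4.01 FPKM. EPCAM and CDH1, markers of epithelial cells, were at or below 0.225 FPKM, while the keratin gene KRT18 reached 83.5 FPKM. For other cell types only markers with a row of their own could be summed. Those of immune (7 of 8), endothelial (2 of 6) and glandular cells (4 of 7) summed to at most 4.13 FPKM in a library. Those of fibroblasts (5 of 6) summed to 2.13 to 4.32 FPKM, mostly COL1A1. SPIB lies only in a locus merged with POLD1 and was not called (adjusted p = 0.267). In bulk RNA, fewer cells that express a gene and less RNA per cell cannot be told apart.

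Of 13438 genes and loci tested, 423 (3.15%) were called changed by limma at an adjusted p under 0.05. Of these 120 (0.893%) rose and 303 (2.25%) fell. The median log2 fold change, detached minus attached on the log2(FPKM + 1) scale, was −0.01 over all tested genes, 0.44 over those that rose and −0.38 over those that fell. Only 4 calls that rose and 25 that fell reached 2-fold. The genes that fell were the more abundant ones: their median level in attached cells was 68.6 FPKM, against 21.2 FPKM for those that rose and 12.6 FPKM over all tested genes. In each of the 423 both detached libraries lay on the same side of both attached ones, which was also so for 6977 (51.9%) of all tested genes, 3180 (23.7%) higher and 3797 (28.3%) lower. The balance of the calls moved with the scaling: quantile normalization gave 159 higher against 182 lower calls, and rescaling on a total that leaves out mitochondrial, ribosomal and small RNA gave 168 against 195. Leaving out attached replicate 1 or 2 left 70 or 56 calls, and leaving out detached replicate 1 or 2 left 91 or 58.

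**Figure D1:**
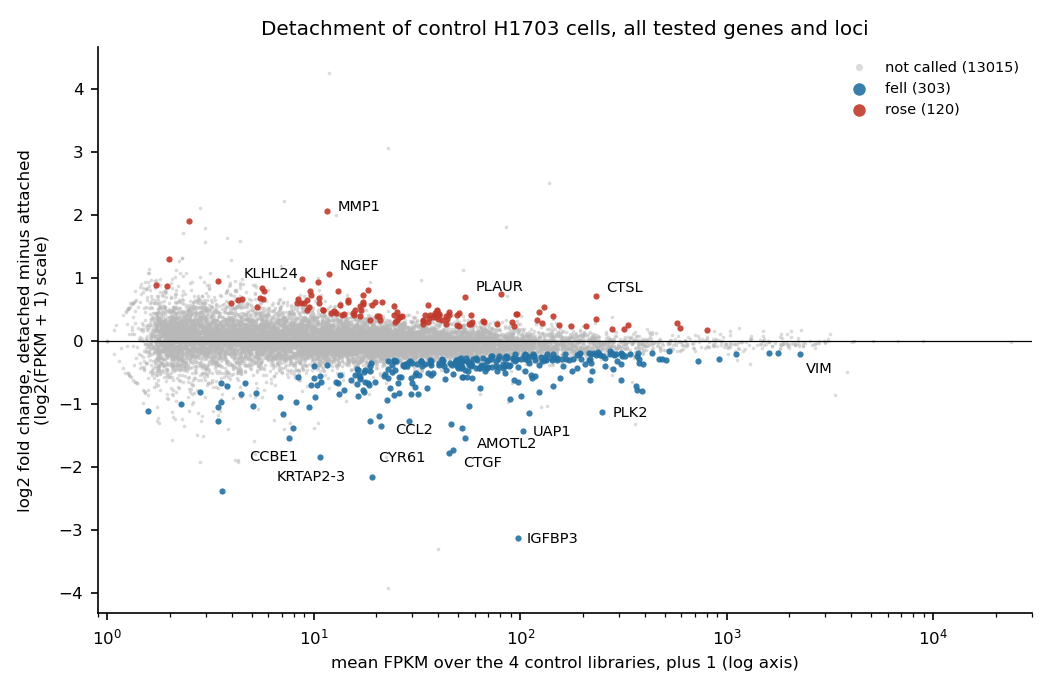
Log2 fold change of each of the 13438 tested genes and loci (vertical axis, detached minus attached control) against the mean FPKM of the 4 control libraries plus 1 (horizontal log axis), with the 303 that fell in blue and the 120 that rose in red. Decreases reach further, to −3.13 for IGFBP3, than increases, which reach 2.07 for MMP1, and calls that fell lie at higher levels.

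Among 103 called genes named by rule, 30 kept their call in all 20 alternative fits, 8 of which each left out 1 library. These calls, named firm here, included the falls of IGFBP3, KRTAP2-3, CYR61, CTGF, AMOTL2, UAP1, TGM2, SERTAD4, ALPK2, CCL2, ARHGAP29, CALD1, CLDN1, GADD45A, PLK2, WNT5B, FGF2, S1PR1, TPM1, PTRF, KRT18, DNAJB6, ETS1, FARSA and FGFR1, and the rises of MMP1, SLC38A9, CTSL and DDR1. Each of the other 73 lost its call without at least 1 of the 4 control libraries. No named call changed direction in any of these fits, and the falls of CAV2, DKC1, EPHA2, ITGA6, NOP56 and NPM1 lost their call under each of the 3 other scalings.

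Targets of YAP and TEAD had the lowest median fold change of the 47 gene lists examined. Of 22 listed genes 17 were tested, 8 fell and 1 rose, and their median log2 fold change was −0.41 against −0.01 over all tested genes. Both detached libraries were below both attached ones for 13 of the 17, against 28.3% of all tested genes. The counts of calls in this and the following lists stand beside 0.893% called higher and 2.25% called lower over all tested genes. CTGF, which encodes a matricellular growth factor (chromosome 6, 132269316 to 132272513, hg19), was listed at 70.7 and 71.9 FPKM in the attached libraries and at 21 and 20.6 FPKM in the detached ones. CYR61, its close relative on chromosome 1 (86046263 to 86091565), went from 72.8 and 64.5 FPKM to 19.6 and 19. AMOTL2, an angiomotin that holds YAP outside the nucleus, went from 76.4 and 81.6 FPKM to 25.7 and 27.7. All 3 genes lay between 19 and 27.7 FPKM in the detached libraries, with no overlap between groups. The falls were 3.32-fold, 3.42-fold and 2.89-fold on FPKM + 1 (limma adjusted p = 4.13e-05, 0.000185 and 0.00108). GADD45A, a stress gene that slows the cell cycle, fell from 157 and 145 FPKM to 69.9 and 66.4 (log2 fold change −1.14 ± 0.06, SE). CRIM1, a transmembrane protein that binds BMP ligands, fell by 0.65 on the log2 scale, and NUAK2, a kinase that acts on myosin, fell by 0.57. ASAP1, an ARF GTPase activating protein, fell by 0.31. The exception in this list was NT5E, the ecto-enzyme that makes adenosine, which rose from 33 and 34.3 FPKM to 45.1 and 44.9 (0.41 ± 0.05, adjusted p = 0.0114). The other 8 tested targets were not called, with DOCK5 at −0.41 and ARHGEF17 at −0.46.

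Genes of the Hippo pathway itself were looked up after some of their values had been seen, as a list of 29 components, of which 23 were tested. Of these 8 fell and none was called higher, and their median log2 fold change was −0.19. The list shares AMOTL2, LATS2 and PTPN14 with the targets above. NF2, the tumour suppressor merlin that recruits LATS kinases to the membrane, was listed at 39.7 FPKM in both attached libraries and at 22.7 and 21.1 FPKM in the detached ones (log2 fold change −0.83 ± 0.08, adjusted p = 0.00398). The kinase LATS2 went from 21.9 and 20.3 FPKM to 12.6 and 10.8 (−0.80 ± 0.09, adjusted p = 0.00912). Its relative LATS1 stood at 13.2 and 11.9 FPKM attached and at 13.3 in both detached libraries, and was not called (0.08 ± 0.08, adjusted p = 0.631). WWC1 and WWC2, scaffold proteins that promote LATS activity, fell by 0.66 and 0.49 on the log2 scale. WTIP, a LIM protein that restrains LATS, fell by 0.70. Among the TEAD factors, TEAD4 fell from 134 and 132 FPKM to 91.4 and 90.8 (−0.54 ± 0.04, adjusted p = 0.000973), and TEAD1 fell from 19.3 and 18.5 FPKM to 12.1 and 10.7 (−0.68 ± 0.09). TEAD3 moved the other way without a call, from 10.5 and 11.4 FPKM to 13 and 13.3 (0.24 ± 0.09, adjusted p = 0.192). YAP1 itself was not called (−0.13 ± 0.05, adjusted p = 0.18), and WWTR1, which encodes TAZ, lies in a merged locus. NF2, AMOTL2 and TEAD4 kept their calls in all 20 alternative fits, and LATS2, TEAD1, WWC1, WWC2 and WTIP lost theirs without at least 1 control library.

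**Figure D2:**
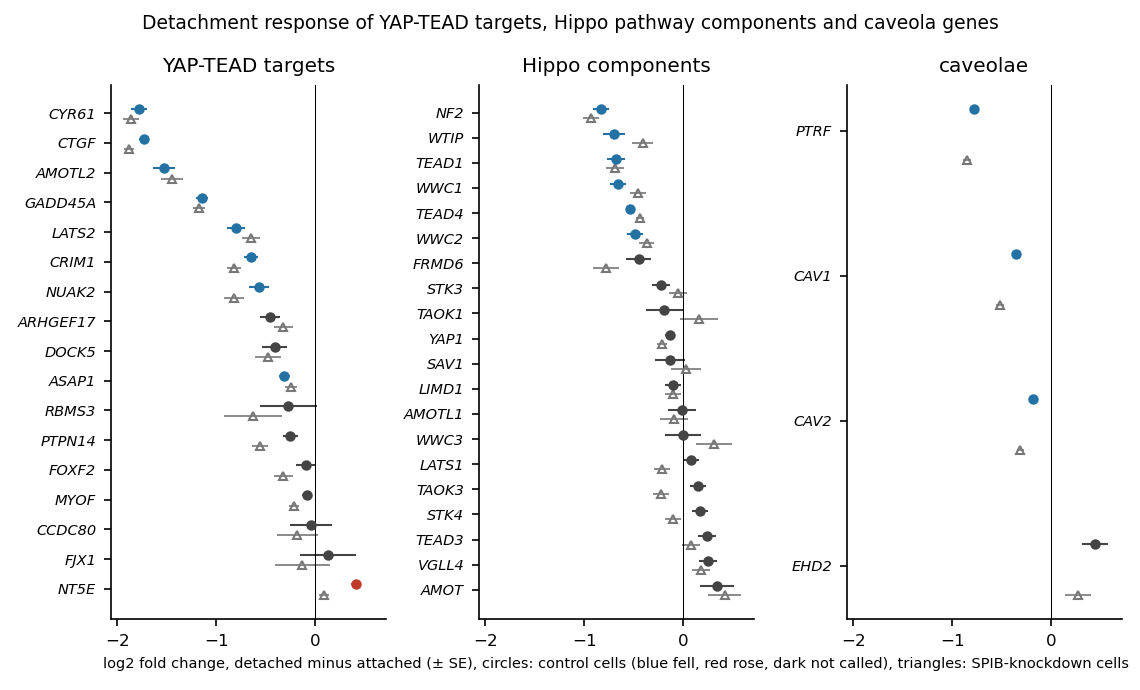
Log2 fold change with its SE for every tested YAP-TEAD target, Hippo pathway component and caveola gene, circles for control cells (blue fell, red rose, dark not called) and triangles for SPIB-knockdown cells. In control cells 8 of 17 targets and 3 of 4 caveola genes fell, CYR61 and CTGF the furthest, and NT5E is the target that rose.

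TEAD factors bind the sequence GGAATG. The promoters of 4 genes that fell and hold it, picked as examples, are shown to let a reader see where it lies. They are the 250 bases before and 50 after the transcription start in RefSeq (GRCh38.p14), on the gene's own strand, in lower case with each GGAATG in capitals.
CTGF (chr6:131951323-131951622, minus strand): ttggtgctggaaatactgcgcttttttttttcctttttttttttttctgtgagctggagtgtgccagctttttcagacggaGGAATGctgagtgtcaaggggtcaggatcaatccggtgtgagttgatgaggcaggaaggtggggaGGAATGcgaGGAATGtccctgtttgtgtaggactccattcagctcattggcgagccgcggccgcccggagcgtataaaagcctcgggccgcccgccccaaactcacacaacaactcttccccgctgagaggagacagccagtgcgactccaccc
CALD1 (chr7:134779384-134779683, plus strand): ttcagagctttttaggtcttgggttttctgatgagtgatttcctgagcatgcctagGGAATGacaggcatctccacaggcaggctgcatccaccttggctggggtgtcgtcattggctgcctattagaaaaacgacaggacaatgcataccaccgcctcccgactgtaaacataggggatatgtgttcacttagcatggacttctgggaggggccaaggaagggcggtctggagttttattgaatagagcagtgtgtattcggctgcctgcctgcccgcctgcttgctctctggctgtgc
LATS2 (chr13:21061537-21061836, minus strand): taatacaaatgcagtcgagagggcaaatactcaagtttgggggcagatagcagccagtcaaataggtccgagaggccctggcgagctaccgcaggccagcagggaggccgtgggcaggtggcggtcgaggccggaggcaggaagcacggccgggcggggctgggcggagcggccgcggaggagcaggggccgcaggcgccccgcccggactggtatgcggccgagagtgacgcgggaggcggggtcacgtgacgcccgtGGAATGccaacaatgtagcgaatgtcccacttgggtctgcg
DKK1 (chr10:52314031-52314330, plus strand): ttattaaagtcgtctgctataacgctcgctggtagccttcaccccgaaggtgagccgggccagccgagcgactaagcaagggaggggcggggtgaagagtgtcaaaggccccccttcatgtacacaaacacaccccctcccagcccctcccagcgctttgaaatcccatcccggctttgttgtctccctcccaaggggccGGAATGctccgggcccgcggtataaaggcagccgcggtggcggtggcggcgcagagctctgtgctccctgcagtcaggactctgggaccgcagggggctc
The CTGF promoter holds the motif 3 times, with first bases at −169, −104 and −95 from the start, and CALD1, DKK1 and LATS2 hold it once, at −194, −50 and 9. Of 11463 single-symbol genes tested, 8183 matched a promoter in the table. GGAATG on either strand was found in 31 of 204 promoters of genes that fell (15.2%), in 10 of 81 of genes that rose (12.3%) and in 843 of all 8183 (10.3%). The motif is thus neither frequent among the falling genes nor absent from the rising ones. NGEF, GDF15, SPRY4, ATG13 and VCL are genes that rose and have it within the same window. A match of letters is a description of the sequence and not evidence of binding.

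Genes of the actin fibres and of caveolae fell in part. Of 22 tested actomyosin genes 3 fell and none was called higher, where 2.25% of all tested genes fell. CALD1, caldesmon, which binds actin and holds back myosin, went from 40.5 and 39.6 FPKM to 16 in both detached libraries (log2 fold change −1.27 ± 0.08, adjusted p = 0.000613). TPM1, a tropomyosin that winds along actin filaments, fell from 153 and 158 FPKM to 92.8 and 84.1 (−0.81 ± 0.07), and FHL2, a LIM protein of the same fibres, fell by 0.42. The actin genes ACTB (3100 and 3025 FPKM attached, 3200 and 2974 detached) and ACTG1 overlapped between groups and were not called. ARHGAP29, a GTPase activating protein, fell from 25 and 26 FPKM to 9.82 and 10.2 (−1.27 ± 0.07, adjusted p = 0.00033). Of 4 tested caveola genes 3 fell. PTRF, cavin 1, which coats these membrane pits, fell from 466 and 460.2 FPKM to 268 and 269 (−0.78 ± 0.04, adjusted p = 0.000255). CAV1, the caveolin that shapes them, fell from 443 and 434 FPKM to 330.5 and 351 (−0.36 ± 0.04), and CAV2 fell by 0.18. EHD2, which sits at the caveolar neck, was at 0.44 without a call (adjusted p = 0.109). Of this group CALD1, TPM1, ARHGAP29 and PTRF are firm, CAV1 lost its call without attached replicate 1 or 2 or detached replicate 1, and CAV2 also under each other scaling.

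Intermediate filament genes, which give the cell its tensile skeleton, also fell more often than they rose. Of 17 tested 5 fell and 1 rose, with a median of −0.20, where over all tested genes 2.25% fell and 0.893% rose. KRT18 was listed at 75.1 and 83.5 FPKM in attached cells and at 47 and 46.2 FPKM in detached cells (log2 fold change −0.75 ± 0.06, adjusted p = 0.00141). Its partner KRT8 was lower in both detached libraries without a call (16.9 and 16.8 FPKM against 13.7 and 11.5, adjusted p = 0.095). VIM, vimentin, fell from 2424 and 2402 FPKM to 2097 and 2062, a small but even step of −0.21 ± 0.03. INA, a neuronal filament gene, fell by 0.28 and KRT80 by 0.80. LMNA, which encodes the nuclear lamins A and C, rose from 258 FPKM in both attached libraries to 293 and 298 (0.19 ± 0.04, adjusted p = 0.037). KRTAP2-3, a keratin-associated protein gene in this list, went from 26 and 34.8 FPKM to 6.18 and 5.88 (−2.15 ± 0.13), but it has a near-identical copy, KRTAP2-4, so its reads may be shared. Of 18 tested junction genes CLDN1 alone was called: this tight junction protein fell from 27.8 and 27.5 FPKM to 11.2 and 11.9 (−1.19 ± 0.07, adjusted p = 0.00033). The summed level of 6 broad epithelial markers, which include KRT8 and KRT18, was 97.2 to 109 FPKM attached and 63.9 to 66 FPKM detached, and its part in these results was not tested. KRT18, KRTAP2-3 and CLDN1 are firm, while VIM, INA, KRT80 and LMNA lost their calls without at least 1 control library.

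Genes of the adhesion machinery that detachment leaves without a partner were called in both directions. Over all tested genes 3.15% were called. Of 10 tested integrin subunits ITGA2, a collagen receptor, rose from 3.4 and 3.38 FPKM to 6.2 and 5.8 (log2 fold change 0.67 ± 0.10, adjusted p = 0.0218). ITGA6, a laminin receptor, fell from 111 and 115 FPKM to 97.4 and 93.1 (−0.24 ± 0.05, adjusted p = 0.0405). ITGB1, the common beta subunit, stood at 342 and 359.6 FPKM attached and at 368 and 371 detached and was not called (0.08 ± 0.04). Of 26 tested focal adhesion genes VCL, vinculin, was the single call and rose from 188 and 189 FPKM to 221 and 227 (0.24 ± 0.04, adjusted p = 0.0317). The kinase PTK2 (0.09 ± 0.05), paxillin, PXN (0.11 ± 0.05), and talin, TLN1 (0.09 ± 0.05), were not called. Of 23 tested matrix genes 2 were called. CCBE1, a secreted factor of lymphatic growth, fell from 14.7 and 16.5 FPKM to 2.72 and 4.78 (−1.84 ± 0.21, adjusted p = 0.00907), and COL18A1, a basement membrane collagen, rose from 44.3 and 43.4 FPKM to 51.6 and 53.8. Of 17 tested tetraspanins, membrane organisers that bind integrins, CD9 and CD82 rose by 0.25 and 0.43 and TSPAN5 fell by 0.53. None of these adhesion calls is firm: each was lost without at least 1 control library, CCBE1 without attached replicate 1 or 2.

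Among genes of the pericellular space, 2 of 16 tested matrix proteases and inhibitors rose and 1 fell, with a list median of 0.21. Both detached libraries were above both attached ones for 9 of the 16, against 23.7% of all tested genes. MMP1, the interstitial collagenase (chromosome 11, 102655725 to 102668968, hg19), was listed at 2.99 and 3.94 FPKM attached and at 17.6 and 17.7 detached (log2 fold change 2.07 ± 0.12, adjusted p = 0.00033). It was the largest rise among called single-symbol genes. PLAUR, the receptor that holds urokinase at the cell surface, rose from 39.9 and 40 FPKM to 70.2 and 61.7 (0.70 ± 0.10, adjusted p = 0.0157). Its ligand PLAU overlapped between groups at 2.38 to 3.38 FPKM and was not called. MMP10 was at 0.67 and MMP9 at 0.46, neither called. MMP1 is firm, and PLAUR lost its call without any 1 of the control libraries.

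Among secreted factors, IGFBP3, which binds insulin-like growth factors and ferries them in the extracellular space (chromosome 7, 45951949 to 45961473, hg19), fell the furthest of all called genes. Attached libraries held 177 and 169.8 FPKM and detached ones 23.2 and 15.4, an 8.77-fold fall on FPKM + 1 (adjusted p = 0.00033). IGFBP4 and IGFBP2 stayed at 9.27 to 16.1 FPKM with overlapping groups. CCL2, a chemokine that draws monocytes, fell from 68.1 and 61.6 FPKM to 26.8 and 24.2 (log2 fold change −1.31 ± 0.09, adjusted p = 0.000777), as the single call among 17 tested cytokine and NF-kB feedback genes. Of 24 tested WNT and Notch genes 3 were called. WNT5B, a ligand, fell from 76.7 and 72.6 FPKM to 38.8 and 34.1 (−1.02 ± 0.08), DKK1, a secreted WNT antagonist, from 8.31 and 12.2 FPKM to 3.71 and 2.14 (−1.53 ± 0.23), and the ligand WNT9A rose from 6.16 and 5.78 FPKM to 10.8 and 11.5 (0.80 ± 0.10). DKK1 lost its call without attached replicate 1 or 2 or detached replicate 2, and WNT9A without any 1 control library.

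Growth factor ligands split in the same way. Of 13 tested 3 fell and 2 rose. FGF2, the basic fibroblast growth factor, fell from 28.8 and 28.6 FPKM to 14.6 and 14.7 (log2 fold change −0.93 ± 0.07, adjusted p = 0.00108). Its receptor FGFR1, which is abundant in this line, fell from 313 and 329.6 FPKM to 237 in both detached libraries (−0.44 ± 0.04, adjusted p = 0.00365). HBEGF and NRG1, ligands of the EGF receptor family, fell by 0.56 and 0.83, and EGFR itself from 62.7 and 64.1 FPKM to 45.7 and 45.5 (−0.47 ± 0.05, adjusted p = 0.00912). ERBB2 overlapped between groups (−0.04 ± 0.10). Upward, DDR1, a receptor tyrosine kinase that collagen activates, rose from 102 and 103 FPKM to 144 and 140.0 (0.47 ± 0.04, adjusted p = 0.00243). GDF15, a stress cytokine, rose from 11.4 and 12.4 FPKM to 19.4 and 21.8 (0.74 ± 0.10), and PDGFB, a platelet-derived growth factor, by 0.43. The ephrin receptor EPHA2, counted among ERK feedback genes too, fell by 0.24. FGF2, FGFR1 and DDR1 are firm and the other calls of this paragraph lost theirs without at least 1 control library.

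Downstream of these receptors, ERK feedback genes had 3 falls and 1 rise of 24 tested. DUSP5 and DUSP14, phosphatases that switch off MAP kinases, fell by 0.40 and 0.39, and SPRY4, a Sprouty inhibitor of the same route, rose from 33.6 and 30.4 FPKM to 46.6 and 43.9 (log2 fold change 0.49 ± 0.06, adjusted p = 0.0144). DUSP6 was at −0.49 without a call (adjusted p = 0.188). Among 27 early response factors FOS rose from 2.22 and 2.46 FPKM to 4.54 and 3.92 (0.65 ± 0.13, adjusted p = 0.0467), a low level at which 1 of the other scalings, quantile normalization, ends the call. JUN stayed at 27.6 to 29.4 FPKM. MYC, a transcription factor that promotes growth, fell from 90.6 and 87 FPKM to 67.1 and 66.5 (−0.41 ± 0.06, adjusted p = 0.0177). ETS1, an ETS family relative of SPIB, fell from 182 and 190.0 FPKM to 126 and 121 (−0.59 ± 0.04, adjusted p = 0.00117). Of 23 tested TGF-beta and BMP targets 2 fell and none was called higher. The ubiquitin ligase SMURF2 was 1 of those that fell (−0.28 ± 0.05), while ID1 overlapped between groups. S1PR1, a receptor for the lipid sphingosine 1-phosphate, fell from 28.9 and 32.1 FPKM to 17 and 15.6 (−0.86 ± 0.08, adjusted p = 0.00292). ETS1 and S1PR1 are firm, and MYC, FOS, SPRY4, DUSP5, DUSP14 and SMURF2 were lost without at least 1 control library.

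**Figure D3:**
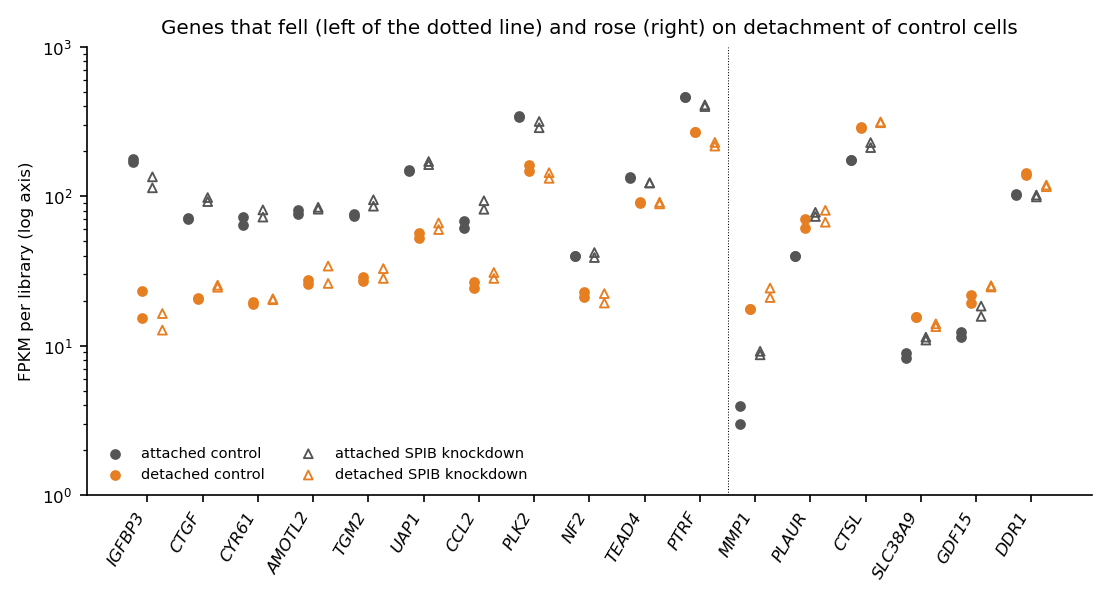
FPKM of 17 called genes in each of the 8 libraries (log axis), circles for control and triangles for SPIB-knockdown cells, grey for attached and orange for detached. Left of the dotted line each gene has both detached control libraries below both attached ones, and right of it above, with MMP1 going from 2.99 and 3.94 to 17.6 and 17.7 FPKM.

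Of 25 tested genes of ribosome assembly 7 fell, none was called higher and 18 were not called. Their log2 fold changes ran from −0.42 to 0.00 with a median of −0.22. Both detached libraries lay below both attached ones for 21 of the 25, against 28.3% of all tested genes. NCL, nucleolin, which organises ribosomal RNA transcription, fell from 795 and 798 FPKM to 667 and 619 (−0.31 ± 0.04, adjusted p = 0.0136). NOP16, a factor of the large subunit, fell from 80.5 and 75 FPKM to 58.1 and 57.5 (−0.42 ± 0.07). PES1, RRP9, NOP56, DKC1 and NPM1 fell by 0.30, 0.37, 0.30, 0.20 and 0.19. FBL, fibrillarin, overlapped between groups at 392 to 439 FPKM. Ribosomal protein genes had 1 call of 64 tested, RPS26 (−0.28 ± 0.05, adjusted p = 0.0351), both detached libraries below both attached ones for 33, and a median of −0.04 that lay between −0.02 and 0.00 under the other scalings. None of these calls is firm: NCL lost its call without attached replicate 1 or 2 or detached replicate 2, and NPM1, NOP56 and DKC1 also under each other scaling.

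Of 38 tested S phase genes 2 fell and 36 were not called. Their log2 fold changes ran from −0.52 to 0.04 with a median of −0.22. Both detached libraries lay below both attached ones for 33 of the 38, against 28.3% of all tested genes. TYMS, which makes thymidylate, fell from 211 and 221 FPKM to 179.6 and 172 (log2 fold change −0.29 ± 0.04, adjusted p = 0.0158), and RRM2, a subunit of ribonucleotide reductase, from 238 and 237 FPKM to 195 and 196 (−0.28 ± 0.05). MCM2, part of the replicative helicase, was at −0.29 without a call (adjusted p = 0.0602). Mitosis genes had a median of 0.01 over 36 tested, with the kinase AURKB the single call (174 FPKM in both attached libraries, 144 and 142 detached). A list of 28 polyamine and nucleotide synthesis genes was drawn up after some values had been seen: of 26 tested 7 fell and none was called higher, with a median of −0.20. In it CTPS1, which makes CTP, fell from 134 and 124 FPKM to 72.6 and 67.9 (−0.87 ± 0.06, adjusted p = 0.00108). SMS, spermine synthase, fell from 367 and 371 FPKM to 247 and 235 (−0.62 ± 0.04, adjusted p = 0.00033), and ODC1, the first enzyme of the polyamine route, from 274 and 310.0 FPKM to 232 and 211 (−0.40 ± 0.07). Among 33 amino acid transporters and tRNA synthetases FARSA fell by 0.47, SLC1A5 by 0.30 and NARS by 0.21. CTPS1, SMS and FARSA kept their calls in all 20 alternative fits, and the others were lost without at least 1 control library. RRM2 and NARS were also lost after quantile normalization and after rescaling, and SLC1A5 after quantile normalization. Among the other falls of the polyamine and nucleotide list, PRPS1 was lost under each other scaling and DCTD after quantile normalization.

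Lysosomal genes rose singly. Of 33 tested lysosomal proteases and hydrolases 3 rose and none was called lower. CTSL, a cysteine protease of the lysosome (chromosome 9, 90340434 to 90346372, hg19), rose from 175 and 174 FPKM to 286 and 289 (log2 fold change 0.72 ± 0.04, adjusted p = 0.00033). CTSB, its relative, went from 101 and 109 FPKM to 133 in both detached libraries (0.34 ± 0.05), and PSAP, the saposin precursor, from 763 and 733 FPKM to 843 and 848 (0.18 ± 0.03). Among 27 membrane and proton pump genes SLC38A9, an amino acid sensor that signals to mTORC1, rose from 8.26 and 8.88 FPKM to 15.5 and 15.6 (0.79 ± 0.08, adjusted p = 0.00378), and LAMP1 overlapped between groups at 153 to 162 FPKM. Of 41 autophagy genes 2 rose: SQSTM1, the p62 receptor, from 501 and 526 FPKM to 614 and 639.8 (0.29 ± 0.04, adjusted p = 0.0134), and ATG13, which activates the ULK1 kinase, from 31.7 and 29.2 FPKM to 40.3 and 41.1 (0.41 ± 0.08, adjusted p = 0.04). CTSL and SLC38A9 are firm, and CTSB, PSAP, SQSTM1 and ATG13 were lost without at least 1 control library.

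Of 29 tested FOXO and fasting genes 2 rose and 1 fell, and the median log2 fold change was 0.18. Both detached libraries were above both attached ones for 19 of the 29, against 23.7% of all tested genes. KLHL24, a ubiquitin ligase adaptor, rose from 7.6 and 4.97 FPKM to 12.5 and 12.9 (0.94 ± 0.17, adjusted p = 0.0392), and PNRC1, a nuclear receptor coactivator, from 8.39 and 8.01 FPKM to 11.8 and 12.3 (0.50 ± 0.10). CITED2, which competes with HIF for its coactivator, fell by 0.23. CCNG2 (0.85, adjusted p = 0.0883) and FOXO4 (0.57, adjusted p = 0.0616) were not called. Of 23 hypoxia genes 4 rose and 1 fell, and their log2 fold changes ran from −0.79 to 0.88 with a median of 0.16. The gene that fell is not reported here. NDRG1, a stress gene, rose from 14.2 and 14.8 FPKM to 23.6 and 22.3 (0.63 ± 0.08, adjusted p = 0.0134), the repressor BHLHE40 by 0.48 and DDIT4, which restrains mTORC1, by 0.43. STC1, a secreted glycoprotein, went from 0.283 and 0.439 FPKM to 1.47 and 1.55, so low that its log2 fold change of 0.88 lay between 0.28 and 1.82 over the other settings. VEGFA, a standard hypoxia gene, was at −0.36 without a call (adjusted p = 0.125). DDIT4 was also the single call among 24 integrated stress response genes, whose median was −0.07. Each call named in this paragraph was lost without at least 1 control library.

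Calls were about as rare among BCL2 and caspase genes as among all tested genes, of which 3.15% were called. None of 15 tested BCL2 family genes was called by limma, and 3 had an unadjusted p under 0.05, against 2761 (20.5%) of all tested genes. BMF, which senses loss of attachment in epithelial cells, was listed at 0.171 and 0.58 FPKM attached and at 0.898 and 1.69 detached, with no overlap and no call (log2 fold change 0.73 ± 0.26, adjusted p = 0.173). BCL2L1, which encodes BCL-XL, stayed at 32.6 to 34 FPKM. Of 26 caspase, death receptor and IAP genes CYCS, cytochrome c, was the single call and fell from 427 and 415 FPKM to 337 and 322 (−0.35 ± 0.04, adjusted p = 0.00819). CASP8 was at 0.20 without a call. Of 21 p53 targets 3 fell, GADD45A, PLK2 and TRIAP1. PLK2, a polo-like kinase, went from 343 and 341 FPKM to 147 and 163 (−1.13 ± 0.07, adjusted p = 0.00033), whereas CDKN1A, which encodes p21, lay higher in both detached libraries at 28.5 and 31.1 FPKM against 23.9 and 22.9 and was not called (adjusted p = 0.0581). DNAJB6, a cochaperone, fell from 183 and 172 FPKM to 115 and 102 (−0.71 ± 0.07) and HSPA8 by 0.19, the 2 calls among 21 heat shock genes. GADD45A, PLK2 and DNAJB6 are firm, and CYCS, TRIAP1 and HSPA8 were lost without at least 1 control library.

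Over all tested genes 3.15% were called and 20.5% had an unadjusted limma p under 0.05, and several lists had no call at all. These were NRF2 targets and glutathione genes (28 tested, 5 with an unadjusted limma p under 0.05), respiratory chain genes (29 and 3), endoplasmic reticulum chaperones (27 and 4), interferon and antigen presentation genes (23 and 4), cholesterol synthesis genes (21 and 2), glycolytic enzymes (15 and 4) and fatty acid synthesis genes (12 and 0). Their medians lay between −0.04 and 0.07, and those of the respiratory, chaperone and cholesterol lists changed sign with the scaling. Single calls stood in lists with medians near 0. They were TGM2, a protein crosslinking enzyme listed with mesenchymal factors (75.7 and 73.5 FPKM to 27.3 and 28.7, log2 fold change −1.38 ± 0.08), UCP2, a mitochondrial carrier (−0.60 ± 0.09), MAP2, a microtubule protein (−0.64 ± 0.11), and the histone gene HIST1H4K (−0.59 ± 0.12). SEMA3C, a secreted guidance cue, fell by 0.59, and IGF2BP2, an RNA-binding protein, by 0.34. TGM2 is firm, and the other 5 of these calls were lost without at least 1 control library.

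**Figure D4:**
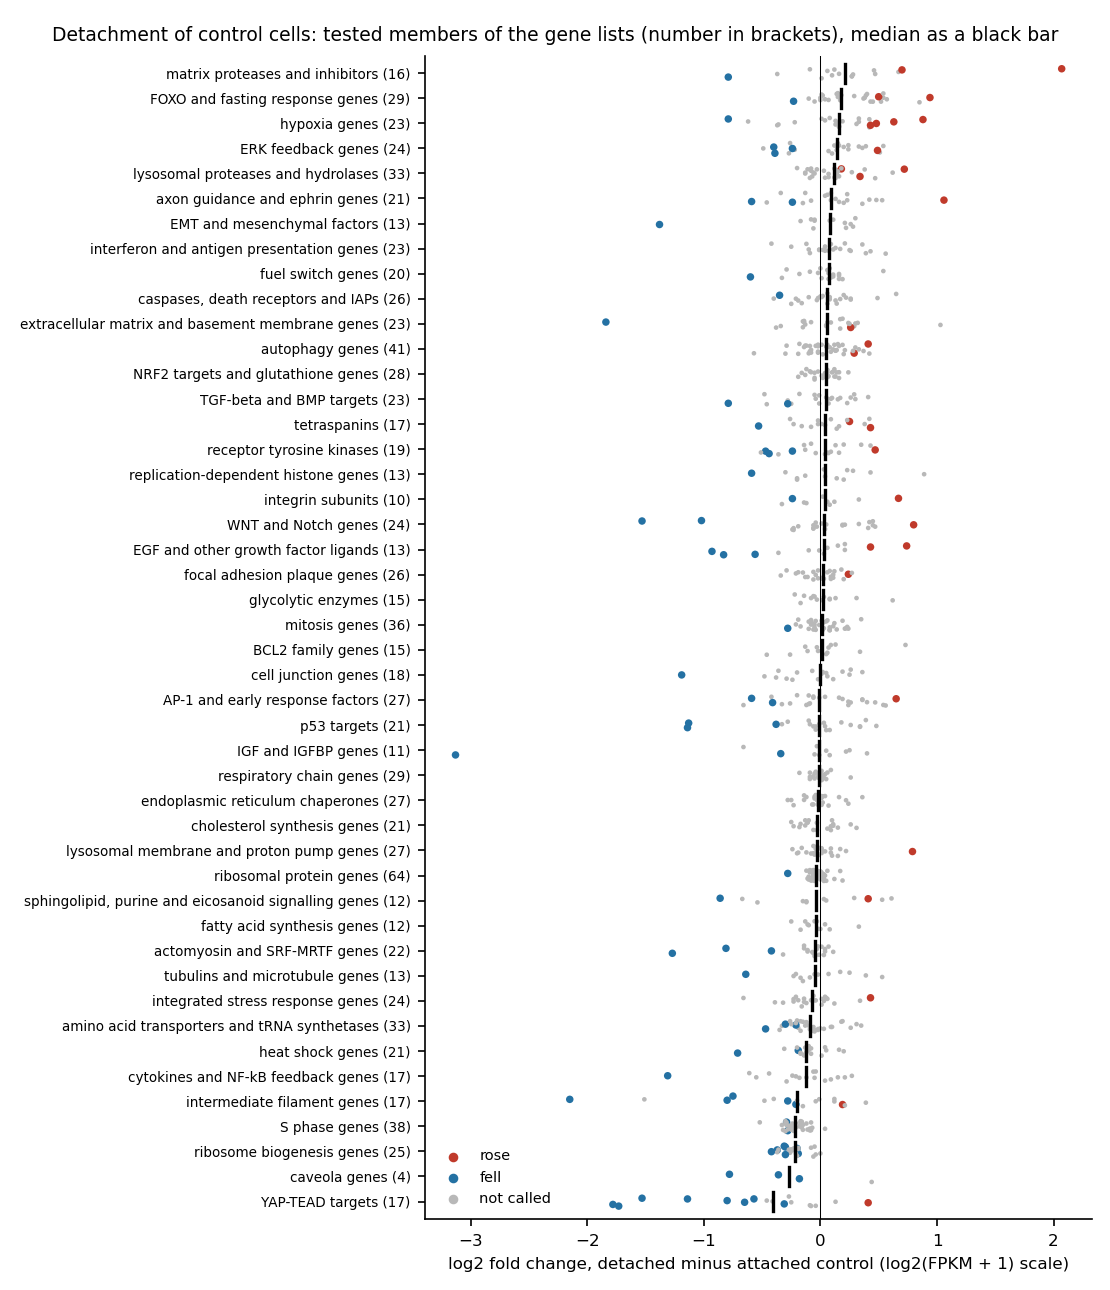
Log2 fold change in control cells of every tested member of the gene lists, 1 list to a line in order of its median (black bar), red for members that rose, blue for those that fell and grey for those not called. The median is lowest for YAP-TEAD targets at −0.41 and highest for matrix proteases and inhibitors at 0.21.

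The other genes with the largest changes had varied functions. UAP1, which makes UDP-N-acetylglucosamine for glycosylation (chromosome 1, 162531278 to 162581197, hg19), fell from 151 and 147 FPKM to 56.5 and 52.4 (log2 fold change −1.43 ± 0.06, adjusted p = 0.000185). SERTAD4 went from 9.77 and 11 FPKM to 3.76 and 3.02 (−1.38 ± 0.13), and ALPK2, an alpha kinase, from 29 and 29.4 FPKM to 11.5 and 10.4 (−1.34 ± 0.08). In the other direction, NGEF, a guanine nucleotide exchange factor that acts downstream of ephrin receptors, rose from 7.06 and 6.28 FPKM to 15.1 and 14.8 (1.06 ± 0.11, adjusted p = 0.00544). TIAM1, an exchange factor for RAC1, rose from 3 and 3.4 FPKM to 5.63 and 6.87 (0.79 ± 0.14). RGS14, which dampens G protein signals, rose from 13 and 11.6 FPKM to 21.8 and 22.8 (0.81 ± 0.15), and SULT2B1, a sulfotransferase of cholesterol, from 3.19 and 2.88 FPKM to 6.22 and 6.27 (0.85 ± 0.12). PBXIP1 and SNCG, a synuclein, rose by 0.69 and 0.68. The pseudogene GPX1P1 was listed at or near 0 in both attached libraries and at 1.7 and 4.22 FPKM in the detached ones; it may share reads with GPX1, and no fold is given. UAP1, SERTAD4 and ALPK2 are firm, NGEF lost its call without attached replicate 2 or detached replicate 2, and TIAM1, RGS14, SULT2B1, PBXIP1, SNCG and GPX1P1 without at least 1 control library.

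Detachment was also measured in SPIB-knockdown cells, from 4 other libraries. There limma called 956 genes (7.11%), 276 higher (2.05%) and 680 lower (5.06%), in the same fit. Of the 120 genes that rose in control cells 115 were positive in knockdown cells and 61 were called higher. Of the 303 that fell 301 were negative and 245 were called lower. The medians of these 2 sets in knockdown cells were 0.33 and −0.37, against 0.44 and −0.38 in control cells. Across all tested genes the 2 fold changes had a Pearson r of 0.419, which describes genes and not replicates. IGFBP3 fell by 3.02 in knockdown cells, CTGF by 1.88 and UAP1 by 1.39, close to their values in control cells. PLAUR, ITGA2, SPRY4 and BHLHE40, set out here after their values were seen, rose in control cells and were at −0.04, 0.11, 0.02 and 0.02 in knockdown cells. For each of these 4 the attached knockdown libraries lay above the attached control ones, PLAUR at 73.3 and 78.1 FPKM against 39.9 and 40. The difference between the responses was tested as an interaction, and no gene was called by limma (0%, smallest adjusted p = 0.214), while 898 (6.68%) had an unadjusted p under 0.05. Leaving out 1 library at a time gave between 0 and 3 such calls.

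**Figure D5:**
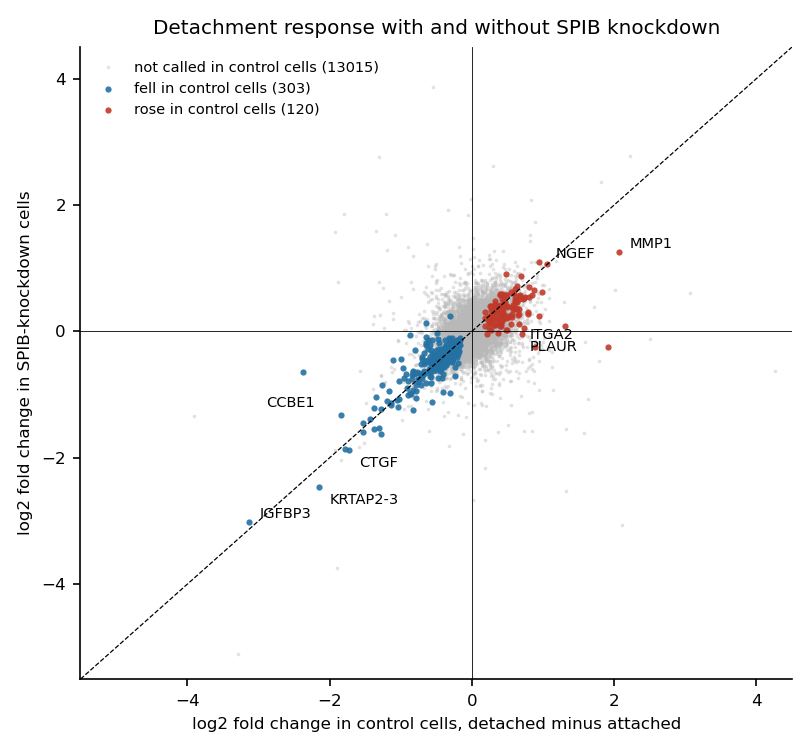
Log2 fold change on detachment in SPIB-knockdown cells (vertical) against control cells (horizontal) for all 13438 tested genes and loci, with genes called in control cells in colour and equality dashed. Of 423 called genes 7 have the opposite sign in knockdown cells, and ITGA2 and PLAUR lie near 0 there.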

How the data were processed

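RNA from 8 libraries of H1703 cells, 2 in each of 4 groups, was measured by sequencing. The deposited values are FPKM per locus, which the authors made with HISAT, Cuffnorm and the hg19 build, per the submitters' processing notes. For versions and the annotation, nothing is given in the sources used here. FPKM divides by length and library total, so a rise of some abundant RNAs lowers the values of others, and the absolute depth is unknown.

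The table holds 28590 loci, of which 1673 have no symbol and 1961 join several genes, whose reads cannot be told apart. Loci of one symbol were summed, leaving 27204. Genes with at least 1 FPKM in at least 2 of the 8 libraries were tested on log2(FPKM + 1), a scale that understates the change of low genes. limma 3.58.1 (R 4.3.3) was fitted with an intensity trend to all 8 libraries, which share 1 estimate of the spread (4 residual and 3.42 prior degrees of freedom). P-values were adjusted by the Benjamini-Hochberg method over all 13438 genes and loci, and those under 0.05 are called. Errors are SE. On simulated data for the control comparison with 13175 genes, the fit recovered 72% of planted changes of 0.5 log2 and 100% of those of 1 log2. Changes were planted only in genes above a minimum mean level, so recovery among genes of low level was not tested.

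Genes and lists were chosen with earlier results of these data known. Named are the 15 largest rises and 15 largest falls among called, non-overlapping single genes without clone, small RNA or ribosomal names, up to 8 called members of each list by smallest p, and the first 3 genes of each list. Other genes, and the lists of Hippo components and of polyamine and nucleotide synthesis, were chosen after their values were seen. A few results are not reported here. Alternatives were other scalings, pseudocounts, filters and fits, and leaving out each library.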

Additional observations from a re-analysis of the deposited data

How the results depend on the processing

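The main count of 423 called genes fell to 190 with no filter on low values, to 120 without the intensity trend and to 56 with the 4 control libraries alone. Leaving out 1 library at a time gave 56 to 265 calls. Leaving out a control library leaves 1 sample in that arm, which is assumed to vary like the other groups. Other scalings gave 341 to 366 calls, pseudocounts of 0.1 and 5 gave 414 and 413, a filter at 5 FPKM gave 582, and dropping the 53 loci listed at 0 in some libraries but at 10 FPKM or above elsewhere gave 452. The cause of these differences was not tested. The share of calls that were higher was 28.4% in the main fit and 36.1%, 46.6% and 46.3% under the 3 other scalings.

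With the replicate number as a block 334 genes were called, 80 higher and 254 lower. Deviations of same-numbered libraries correlated at 0.174, 0.261 and 0.267 among the control and detached knockdown groups, and at −0.185, −0.185 and −0.139 for pairs with attached knockdown cells. The mitochondrial loci summed to 0 in replicate 1 of those 3 groups and in replicate 2 of attached knockdown cells. Not every pair was positive and the labels name no shared batch, so the numbers were not taken as pairing, and a batch was not tested apart from the crossed fit. That fit, with the attached knockdown numbers crossed and chosen after seeing the data, called 251. The block as numbered ended the calls of ATG13, CAV2, COL18A1, DKC1, DUSP5, EPHA2, FOS, HIST1H4K, IGF2BP2, ITGA6, KRT80, LMNA, NOP56, NPM1, PNRC1, PRPS1 and SNCG. The crossed block ended those but HIST1H4K, and also CD82, DCTD, KLHL24, NARS, NUAK2, ODC1, PDGFB, PSAP, RGS14, RPS26, STC1 and TRIAP1. The interaction had 0 calls in the main fit and 0 to 3 with 1 library left out.

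The 2 libraries per group and the unknown absolute depth limit what small changes can be called.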
